A study of Mus musculus with 10 samples.

Results

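Intercalated discs are the end-to-end contacts of cardiac muscle cells. In all, 10 of their genes were followed in left ventricular RNA of HFD+mTAC mice and controls: the gap junction channel genes Gja1 and Gjc1, the desmosomal plaque genes Dsp, Jup and Pkp2, the desmosomal cadherins Dsg2 and Dsc2, the adherens junction genes Cdh2 and Ctnna3, and the scaffold gene Tjp1. The 10 genes were listed by name for their place in the disc. The rule uses no measured value, although the list was made with earlier results of these data known. All 10 were among the 29564 gene symbols of the deposited tables, and all 10 passed the filter on low counts that left 13299 genes for testing.

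Both groups were wild-type mice, 5 per group, of the strain written C57BL6 in the labels and C57BL/6J in the methods. All 10 carry the treatment label vehicle, and the daily schedule (10 mL/kg for 6 to 9 weeks) is worded for HFD+mTAC mice, so that the dosing of the controls is known from that label alone. HFD+mTAC mice were fed a high-fat diet (HFD, 60% of kilocalories from fat). At 11 weeks of age they also had surgery, a moderate transverse aortic constriction (mTAC), in which the aortic arch is tied to a smaller bore so that the ventricle ejects against a higher pressure. Control mice had neither, and were kept on chow with 10% of kilocalories from fat. The methods give males and a 16-week regimen, and the combined model was built to mimic heart failure with preserved ejection fraction. Diet and operation came together in the HFD+mTAC mice, so that their effects cannot be told apart here. Whole ventricular tissue was lysed, and in such bulk samples fewer cells of a type and less RNA per cell cannot be told apart.

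In an intercalated disc, gap junctions carry current between neighboring cardiomyocytes, whereas desmosomes and adherens junctions hold the cells together against the force of contraction. Gap junction channels are built from connexins, of which Gja1 encodes the main ventricular form. Desmosomal cadherins (Dsg2, Dsc2) reach across the gap between the cells and are tied by plakoglobin (Jup) and plakophilin-2 (Pkp2) to desmoplakin (Dsp), which anchors desmin filaments. In adherens junctions N-cadherin (Cdh2) is linked through catenins, among them alpha-T-catenin (Ctnna3), to actin. Tjp1 encodes ZO-1, a scaffold that binds the end of connexin proteins at the rim of gap junction plaques. Mutations in the desmosomal genes are a known cause of arrhythmogenic cardiomyopathy, and altered Gja1 expression or placement is a known feature of diseased ventricle.

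The gap junction genes lie on chromosome 10 (Gja1, 56377330 to 56402513, plus strand) and chromosome 11 (Gjc1, 102799579 to 102819700, minus strand) of the GRCm38 assembly. Dsp lies on chromosome 13 (38151294 to 38198577, plus strand), Jup on chromosome 11 (100368958 to 100397763, minus strand), Pkp2 on chromosome 16 (16213318 to 16272712, plus strand) and Tjp1 on chromosome 7 (65296165 to 65527781, minus strand). Ctnna3 spans chromosome 10 from 63430098 to 65003667 on the plus strand.

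RefSeq promoter windows of GRCm38.p6 matched 5 of the 10 genes (Gja1, Dsp, Jup, Ctnna3 and Tjp1). The 250 bases before the annotated start are shown for Gja1, the gene with the smallest p of the 10, and for Dsp and Ctnna3, which rose and fell together from mouse to mouse. Capitals mark an AP-1 motif (TGANTCA) in Gja1 and GC boxes (GGGCGG or its reverse complement) in Dsp and Ctnna3.
Gja1 (chr10:56377050-56377299, plus strand): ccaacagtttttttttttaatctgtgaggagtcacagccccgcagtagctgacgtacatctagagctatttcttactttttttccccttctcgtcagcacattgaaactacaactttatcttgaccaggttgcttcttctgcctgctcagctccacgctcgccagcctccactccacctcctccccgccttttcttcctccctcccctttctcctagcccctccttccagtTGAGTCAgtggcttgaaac
Dsp (chr13:38151044-38151293, plus strand): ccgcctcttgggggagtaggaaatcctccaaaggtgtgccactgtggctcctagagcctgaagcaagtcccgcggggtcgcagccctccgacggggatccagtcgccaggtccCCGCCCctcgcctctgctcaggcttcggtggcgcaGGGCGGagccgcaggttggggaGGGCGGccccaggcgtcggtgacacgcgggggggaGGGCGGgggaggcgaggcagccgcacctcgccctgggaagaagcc
Ctnna3 (chr10:63429848-63430097, plus strand, the first of 3 annotated windows): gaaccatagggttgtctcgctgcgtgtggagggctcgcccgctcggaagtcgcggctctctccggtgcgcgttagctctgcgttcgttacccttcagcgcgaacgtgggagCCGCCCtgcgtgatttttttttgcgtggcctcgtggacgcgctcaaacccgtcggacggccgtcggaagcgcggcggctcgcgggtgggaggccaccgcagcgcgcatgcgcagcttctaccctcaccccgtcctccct

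The AP-1 motif of Gja1 began 19 bases before the start and overlapped an E-box (CANNTG) that began 23 bases before it. Both strands were searched, and 6.75% of the 32851 promoter windows of this length held an AP-1 motif, 66.2% an E-box and 32.7% a GC box. The Dsp window held 4 GC boxes, beginning 137, 102, 80 and 45 bases before the start, and that of Ctnna3 held 1, at 139. Jup and Tjp1 had 2 GC boxes each, and the Gja1 window held none. No window of the 5 held a TATA box spelled TATAAA (12.4% of all windows), and Jup alone held the letters CCAAT (33.8% of all windows). These matches describe the letters of the windows and show no binding.

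The libraries held 34.2 to 53.7 M estimated counts each, of which 43.79 to 52.66% lay on mitochondrial genes and 12.65 to 21.07 M on the protein-coding genes tested. The control mice TT-583 and TT-584 had the lowest mitochondrial shares (43.79 and 44.04%) and the shortest mean transcript lengths (3667 and 3506 bases against 3887 to 4320), and a fit without both was run as well. The counts behind the 10 genes ranged from 233 (Ctnna3) to 32361 (Dsp) per mouse, so that counting error was small beside the spread between mice. Cardiomyocyte markers were abundant in every mouse (Myh6, Tnnt2, Ttn and 5 others, summing to 13900 to 19860 TPM), and the epithelial markers Epcam, Krt5 and Krt14, which mark another tissue rich in desmosomes, were listed at 0 in all 10 mice.

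To compare levels between genes, TPM values (transcript abundances scaled within a mouse and corrected for length) were used. Jup was the most abundant of the 10, with 45.4 ± 9.57 TPM in controls and 51.3 ± 11.6 in HFD+mTAC mice (mean ± SD, n = 5 each), and it lay above Dsp in every mouse without overlap of the ranges. Dsp followed with 26.2 ± 5.33 TPM in controls and 26.5 ± 9.09 TPM in HFD+mTAC mice. Gja1 came next, with 23.0 ± 4.84 TPM in controls and 15.6 ± 4.93 TPM in HFD+mTAC mice. Dsp and Gja1 did not separate in controls, where Dsp was the higher in 3 of 5 mice, whereas in HFD+mTAC mice Dsp was the higher in 5 of 5 with overlapping ranges.

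Below them stood the N-cadherin gene Cdh2 (13.8 ± 2.23 and 13.2 ± 4.23 TPM), Pkp2 (9.26 ± 1.24 and 8.60 ± 1.73 TPM) and Tjp1 (8.35 ± 0.871 and 9.31 ± 1.55 TPM). The ranges of neighbors in this trio overlapped in both groups. A step separated Pkp2 and Tjp1 from the desmosomal cadherin Dsg2 (2.95 ± 0.5 and 2.72 ± 0.906 TPM), which overlapped with Gjc1 (2.32 ± 0.676 and 2.09 ± 0.306 TPM). Dsc2 (1.40 ± 0.193 and 1.12 ± 0.330 TPM) and Ctnna3 (0.920 ± 0.219 and 1.05 ± 0.501 TPM) were the lowest. In mean TPM 8 of the 10 genes had the same rank in both groups, and only Pkp2 and Tjp1 changed places.

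**Figure D1:**
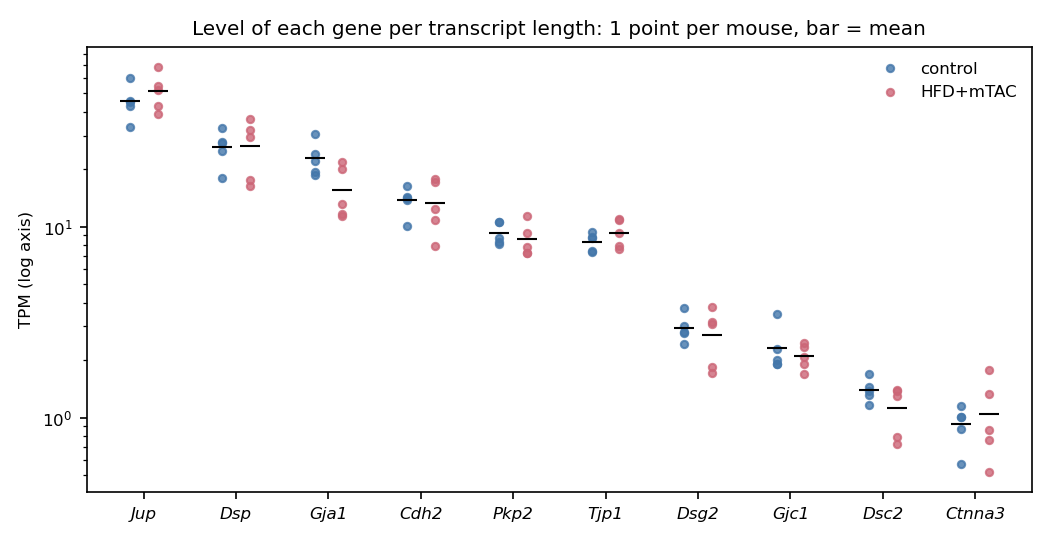
Levels of the 10 intercalated disc genes in TPM (log axis), with 1 point per mouse, 5 control mice in blue and 5 HFD+mTAC mice in red, and a bar at each mean. The genes run from Jup near 50 TPM to Ctnna3 near 1 TPM in the same order in both groups except for Pkp2 and Tjp1. The first place of Jup holds for TPM and not for CPM, where its mean lay below those of Dsp, Gja1 and Cdh2.

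The main question was whether disc genes differed between HFD+mTAC and control hearts. Of the 10 genes, none passed an adjusted p of 0.05 in edgeR's quasi-likelihood test (Benjamini-Hochberg adjustment over all 13299 genes), where 0.0602% of all genes tested did (8 genes). One of the 10, Gja1, had an unadjusted p under 0.05, against 8.26% of all genes. DESeq2 and limma called 0 of the 10 as well. In 0 of the 10 genes did the normalized counts of the groups fail to overlap, against 1.96% of all genes. The estimates were higher in HFD+mTAC mice for 7 genes and lower for 3, with a median log2 fold change of 0.06 beside 0.001 over all genes.

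Gja1 encodes connexin 43, the main ventricular gap junction channel. Its normalized counts (CPM, counts scaled to a common library size) were 768.9, 602.5, 806.1, 752.5 and 759.5 in the control mice TT-583 to TT-587. In TT-588 to TT-592, the HFD+mTAC mice, they were 702.2, 601.8, 463.1, 419.2 and 603.7. In CPM all 5 HFD+mTAC mice lay below the control mean and 3 of 5 below every control. The overlap in CPM rested on the low control TT-584, whose value fell inside the HFD+mTAC range. In TPM the overlap came from other mice, and TT-584 was at 23.93, inside the control range. There controls TT-586 (18.63) and TT-587 (19.36) lay below HFD+mTAC mice TT-588 (19.98) and TT-592 (21.74). The log2 fold change was -0.40 (SE 0.14, 95% interval -0.70 to -0.10, unadjusted p = 0.0122 and adjusted p = 0.426 by edgeR). Group means were 738 ± 78.5 CPM in controls and 558 ± 115 CPM in HFD+mTAC mice, a fitted difference of 24.4%.

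The estimate for Gja1 stayed negative in every alternative, between -0.52 and -0.32, and its adjusted p ranged from 0.0553, with the first principal component of the libraries as a covariate, to 0.769, without TT-583 and TT-584. Without TT-584 the groups no longer overlapped in CPM. This control was left out because its value made the overlap, so that the separation followed from the choice and shows nothing more. Under that omission 2.69% of all genes did not overlap, a share for which no mouse was picked gene by gene. In TPM the groups overlapped without TT-584 as well, with control TT-586 at 18.63 and HFD+mTAC mouse TT-592 at 21.74. Beside Gja1, the summed TPM of the 8 cardiomyocyte markers was lower in HFD+mTAC mice as well, and 7 of these 8 markers had lower estimates. The sum was 16200 to 19860 (median 18050) in controls and 13900 to 16330 (median 14680) in HFD+mTAC mice. That difference had p = 0.0159 in an exact two-sided permutation test, whose smallest possible p is 0.00794, and 0.103 after adjustment over 13 marker lists. As a mean of log2(TPM + 1), in which abundant markers weigh less, the same exact permutation test gave p = 0.119. Relative to the cardiomyocyte markers the log2 fold change of Gja1 was -0.35. The part of these markers in the Gja1 values was not tested further.

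Gjc1, which encodes connexin 45, a connexin best known from the conduction system, had 34.5, 32.9, 31.9, 32.8 and 40.8 CPM in controls and 36.3, 31.6, 37.1, 41.9 and 35.4 CPM in HFD+mTAC mice. The values of both groups filled the same range, and the log2 fold change was 0.07 (95% interval -0.14 to 0.29, adjusted p = 0.910 by edgeR). Its TPM in control TT-584 (3.49) stood above the 1.69 to 2.45 of the other 9 mice, where the effective transcript length was 1687 bases against 2398 to 2787 in the others. The counts of this mouse did not stand apart.

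**Figure D2:**
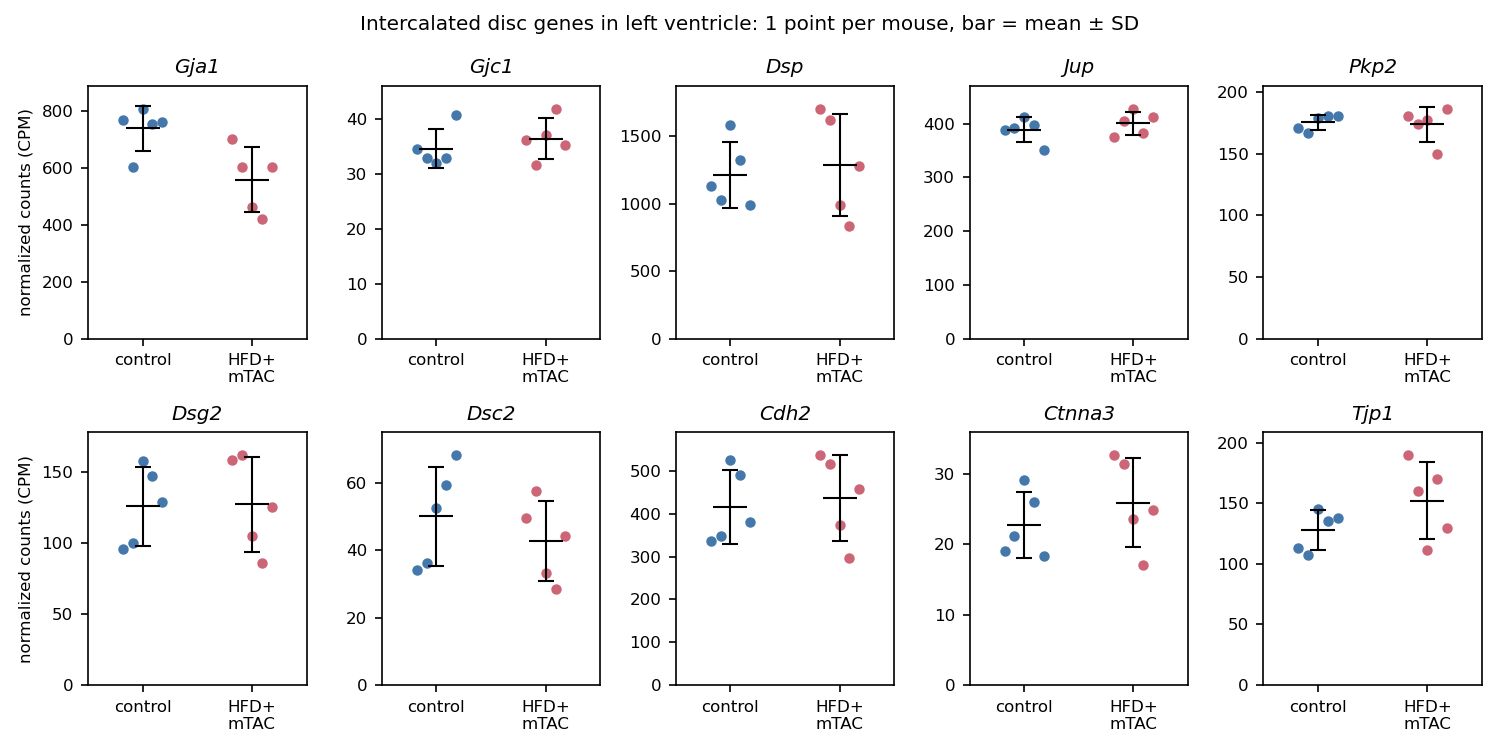
Normalized counts (CPM) of each gene, with 1 point per mouse, control in blue and HFD+mTAC in red, and the mean ± SD of 5 mice in black; every axis starts at 0. Gja1 is the gene whose HFD+mTAC points sit mostly below those of controls, and in all 10 panels the groups overlap.

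Among the desmosomal plaque genes, Dsp had 1130, 1028, 1585, 1326 and 989.0 CPM in controls and 1704, 1624, 993.4, 837.8 and 1280 CPM in HFD+mTAC mice. Both groups held high and low mice, and the HFD+mTAC group spanned both the highest and the lowest value of the 10. The log2 fold change was 0.09 (SE 0.20, 95% interval -0.34 to 0.52, adjusted p = 0.945 by edgeR), and -0.02 without TT-583 and TT-584.

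Jup and Pkp2 were the steadiest genes of the 10 in CPM. Jup, whose protein plakoglobin serves both desmosomes and adherens junctions, had 388.0, 392.6, 412.6, 398.2 and 350.7 CPM in controls and 375.2, 405.7, 427.3, 382.2 and 413.0 CPM in HFD+mTAC mice (log2 fold change 0.04, 95% interval -0.12 to 0.21, adjusted p = 0.924 by edgeR). Pkp2 had 171.1, 166.7, 178.8, 180.5 and 180.5 CPM in controls and 180.9, 173.8, 177.7, 150.1 and 186.3 CPM in HFD+mTAC mice (log2 fold change -0.01, 95% interval -0.18 to 0.15, adjusted p = 0.981 by edgeR). The coefficients of variation of Jup were 5.9% in controls and 5.4% in HFD+mTAC mice, and those of Pkp2 3.6 and 8.0%, below the medians of 11.4 and 12.3% over the 7669 genes with at least 15 CPM. For both genes the interval in counts reached no farther than 0.21 from 0 in either direction.

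The desmosomal cadherins, which lie on chromosome 18 (Dsc2 at 20030633 to 20059554 on the minus strand and Dsg2 at 20558074 to 20604521 on the plus strand), varied more. Dsg2 had 95.7, 100.0, 157.7, 147.3 and 128.7 CPM in controls and 158.4, 161.7, 104.8, 85.6 and 125.4 CPM in HFD+mTAC mice, with a log2 fold change of 0.02 (95% interval -0.40 to 0.43, adjusted p = 0.993 by edgeR). Its partner Dsc2 had 34.2, 36.2, 52.6, 59.3 and 68.1 CPM in controls and 49.5, 57.7, 33.2, 28.5 and 44.3 CPM in HFD+mTAC mice, with a log2 fold change of -0.23 (95% interval -0.71 to 0.25, adjusted p = 0.855 by edgeR). Dsc2 had the widest spread of the 10 genes in CPM, 2.39 times from the lowest to the highest mouse. In CPM of both genes TT-583 and TT-584 were the lowest controls and TT-590 and TT-591 the lowest HFD+mTAC mice. In TPM the lowest controls for Dsg2 were TT-587 (2.425) and TT-586 (2.76). Without TT-583 and TT-584 the estimate of Dsg2 was -0.19 and that of Dsc2 -0.49. The Dsc2 estimate was -0.09 without control TT-587 and -0.37 without HFD+mTAC mouse TT-589.

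Of the adherens junction genes, Cdh2 (chromosome 18, 16588877 to 16809246, minus strand) had 337.5, 347.5, 525.6, 490.2 and 381.0 CPM in controls and 536.5, 515.8, 373.2, 296.0 and 459.2 CPM in HFD+mTAC mice (log2 fold change 0.07, 95% interval -0.31 to 0.45, adjusted p = 0.952 by edgeR). Ctnna3 had 19.0, 21.1, 29.1, 25.9 and 18.3 CPM in controls and 32.6, 31.5, 23.5, 17.0 and 24.9 CPM in HFD+mTAC mice (log2 fold change 0.19, 95% interval -0.21 to 0.59, adjusted p = 0.852 by edgeR). In CPM of both genes TT-585 and TT-586 were the highest controls and TT-588 and TT-589 the highest HFD+mTAC mice. In TPM TT-592 exceeded TT-589 in both (Cdh2 17.86 against 12.39, Ctnna3 1.333 against 0.8617). Control TT-584 exceeded TT-586 in TPM of Cdh2 (14.39 against 14.1). The groups overlapped throughout, and without TT-583 and TT-584 the estimate of Cdh2 was -0.10 and that of Ctnna3 0.08. The Ctnna3 estimate was 0.09 without TT-588, 0.31 without TT-591 and 0.01 with the first principal component as a covariate.

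The scaffold gene Tjp1 had 113.1, 107.5, 145.6, 135.7 and 137.7 CPM in controls and 189.6, 160.6, 111.2, 170.3 and 129.5 CPM in HFD+mTAC mice. In CPM TT-588, TT-589 and TT-591 lay above every control, whereas TT-590 and TT-592 lay inside the control range. In TPM only TT-588 (10.79) and TT-591 (10.93) exceeded the highest control, TT-584 (9.337), and TT-589 was at 7.617. The log2 fold change was 0.25 (SE 0.14, 95% interval -0.06 to 0.56, unadjusted p = 0.102 and adjusted p = 0.698 by edgeR). The estimate was 0.12 without TT-583 and TT-584, the controls with the lowest values of Tjp1 in CPM. In TPM these were the highest controls (8.853 and 9.337).

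**Figure D3:**
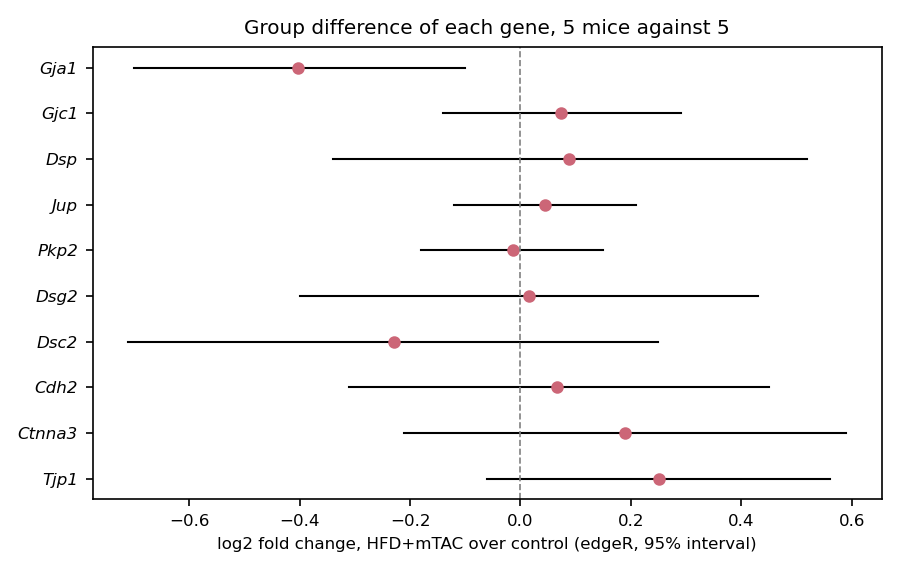
Log2 fold change of each of the 10 genes in HFD+mTAC over control mice, with the 95% interval of edgeR's fit (5 mice against 5); the dashed line marks 0. The interval of Gja1 (-0.70 to -0.10) is the only one that leaves out 0, before any adjustment for the number of genes tested, and those of Jup and Pkp2 are the narrowest.

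As a description, the 6 ratios between partner genes were read within each mouse, in TPM. Tjp1 estimates were higher and Gja1 estimates lower in these same mice. A higher Tjp1/Gja1 ratio therefore follows from those estimates and is no separate evidence of a change. Tjp1/Gja1 was 0.288, 0.390, 0.393, 0.395 and 0.387 in controls (mean 0.371 ± 0.0463) and 0.540, 0.582, 0.680, 0.965 and 0.427 in HFD+mTAC mice (mean 0.639 ± 0.204). The HFD+mTAC values all exceeded the highest control, in TPM and in CPM. Ratios to Gja1 whose groups did not overlap, in either direction, were found for 9.78% of the 13298 other genes tested. Such a separation is thus shared by many genes and reads as much on Gja1 as on Tjp1.

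In the other 5 ratios the groups overlapped. Gjc1/Gja1, the ratio of the connexins, was 0.102 ± 0.0272 in controls and 0.141 ± 0.0311 in HFD+mTAC mice. Dsc2/Dsg2, the ratio of the desmosomal cadherins, was 0.486 ± 0.130 and 0.415 ± 0.0312, Pkp2/Dsp was 0.363 ± 0.0716 and 0.349 ± 0.0983, and Jup/Dsp was 1.82 ± 0.584 and 2.10 ± 0.704. The adherens pair Ctnna3/Cdh2 had 0.0664 ± 0.00964 in controls and 0.0766 ± 0.0153 in HFD+mTAC mice.

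Within the groups the genes did not vary independently. The genes Dsp, Dsg2, Cdh2 and Ctnna3 rose and fell together from mouse to mouse, and they come from desmosomes as well as from adherens junctions. Of 45 pairs of the 10 genes, 7 had a Pearson r above 0.8 in log2 CPM over the 10 mice. These were the 6 pairs of this set and the pair of Dsg2 with Dsc2. The share of all gene pairs with such an r was not computed, so the count is not shown to be particular to disc genes. The set itself was grouped by these same correlations. The closest pair was Dsg2 and Cdh2 (r = 0.97, Spearman rho = 0.95, permutation p = 2e-05 for r and 0.00015 for rho, adjusted 0.0009 and 0.00337 over 45 pairs). The correlation was 0.95 within controls and 0.98 within HFD+mTAC mice, and 0.94 without the 2 mice farthest from the median of Dsg2. Dsg2 and Cdh2 lie on the same chromosome, as does Dsc2. Dsc2 followed Dsg2 (r = 0.85, rho = 0.76, permutation p = 0.00327 and 0.0151, adjusted 0.021 and 0.0971, and r = 0.73 without the 2 farthest mice) but was less tied to the others, with r = 0.72 to Cdh2, 0.58 to Dsp and 0.48 to Ctnna3 (adjusted permutation p = 0.0953, 0.193 and 0.282 for r).

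Dsp was also tied to Ctnna3 (r = 0.93, rho = 0.95, permutation p = 0.00019 and 0.00013, adjusted 0.00248 and 0.00337) and to Cdh2 (r = 0.94, rho = 0.87, permutation p = 0.00022 and 0.00237, adjusted 0.00248 and 0.0213). Without the 2 farthest mice these values of r were 0.87 and 0.90. Cdh2 and Ctnna3, the members of 1 junction, had r = 0.93 and rho = 0.92 (permutation p = 8e-05 and 0.00043, adjusted 0.0018 and 0.00645), and r = 0.89 without the 2 farthest mice. Within controls and within HFD+mTAC mice, respectively, r was 0.93 and 0.96 for Dsp with Ctnna3, 0.88 and 0.98 for Dsp with Cdh2, and 0.91 and 0.97 for Cdh2 with Ctnna3.

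This shared pattern followed the main axis of variation of the libraries. The first principal component of all genes took 23.9% of the variance, and its scores were above 0 in TT-585, TT-586, TT-588, TT-589 and TT-592, 2 controls and 3 HFD+mTAC mice. In CPM these 5 mice had the 5 highest values of Dsp, Cdh2 and Ctnna3, and 4 of the 5 highest values of Dsg2, Dsc2, Jup and Pkp2. For Gja1 and Tjp1 3 of the 5 highest mice were among them, and for Gjc1 2. The 10 genes are part of the genes from which the component was computed, so this is a description. With the component as a covariate the estimates of Dsp, Dsg2 and Cdh2 were -0.13, -0.16 and -0.10, on the other side of 0 from the values above, and none of the 10 was called. The sources of this axis were not tested.

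**Figure D4:**
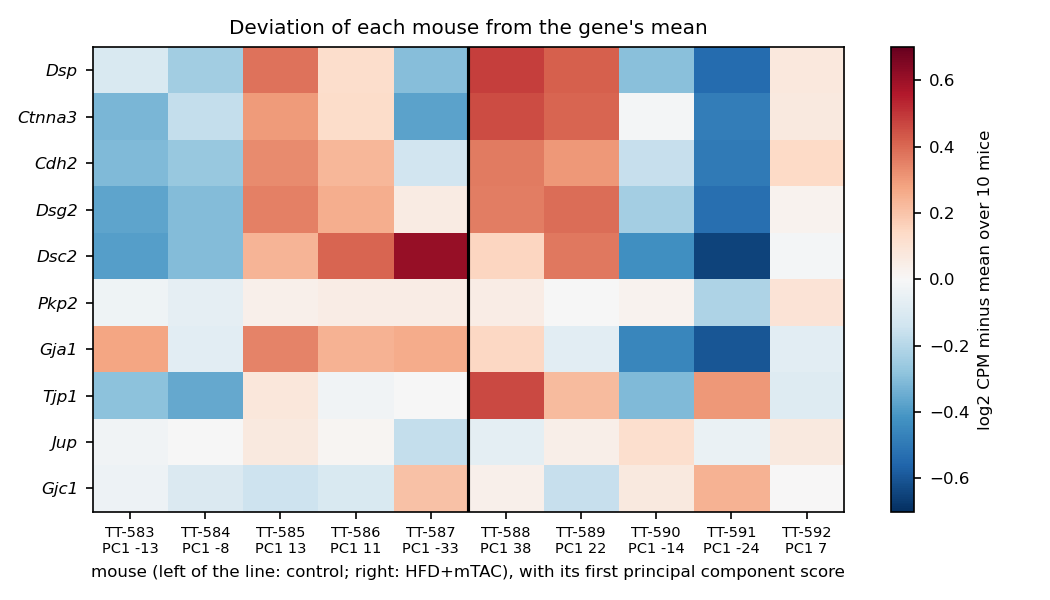
Deviation of each mouse from the mean of each gene in log2 CPM (red above, blue below), with the 5 control mice left and the 5 HFD+mTAC mice right of the line and the first principal component score under each mouse. The upper 4 genes change color together across mice of both groups, with TT-588 and TT-589 high and TT-591 low, whereas Jup and Pkp2 stay pale.

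Genes outside the junction lists that followed the mean pattern of the 10 closely, among the top 5 of 9989 with at least 5 CPM, included Nat10 (r = 0.963 over 10 mice), Cep85 (0.957), Slc25a28 (0.950) and Nebl (0.949). Nat10 encodes an RNA acetyltransferase, Slc25a28 a mitochondrial iron carrier and Nebl the sarcomeric Z-disc protein nebulette. Nebl had 292 ± 46.7 CPM in controls and 296 ± 81.0 CPM in HFD+mTAC mice, with a range of 200 to 390 CPM over the mice. These genes were taken from the top of a long ranking, so their r values are a description only.

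Effective transcript lengths, which shift when the mix of isoforms or the coverage of a transcript differs between libraries, were compared because they separate counts from TPM. No length of the 10 genes was called by limma, which called 0 of all 13299 genes. None of the 10 had an unadjusted p under 0.05, against 3.55% of all genes. Jup had the largest range, from 936 to 1830 bases (1.96 times, where the median gene had 1.42 times and 29.0% of genes exceeded 1.9 times). Its mean length was 1380 ± 360 bases in controls and 1158 ± 134 in HFD+mTAC mice (log2 difference -0.22, adjusted p = 0.734 by limma). Hence its estimate was 0.04 in counts and 0.33 in log2(TPM + 1), neither called. Dsp and Pkp2 had the steadiest lengths, with ranges of 1.14 and 1.12 times.

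To place the 10 genes among related ones, 100 further genes of 6 lists were examined, of which 71 passed the filter. None of the 71 was called by edgeR, 5 had an unadjusted p under 0.05 (8.26% of all genes did), and 36 had higher and 35 lower estimates, with a median log2 fold change of 0.01. In 2 genes the normalized counts of the groups did not overlap (1.96% of all genes).

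Of 21 other connexin and pannexin genes, 7 passed the filter and none had an unadjusted p under 0.05. The vascular connexin gene Gja4 had 16.8 ± 2.74 CPM in controls and 16.5 ± 5.39 CPM in HFD+mTAC mice, and Gja3 22.4 ± 5.15 and 20.4 ± 4.27 CPM. Both stood well below Gja1, at 1.59 and 1.04 TPM in controls. Panx2 and Gjc3 had 0.651 to 2.18 CPM on average, and their log2 fold changes, 0.58 and -0.42, had adjusted p of 0.692 and 0.859 by edgeR; without TT-583 and TT-584 the Panx2 value was 0.22.

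Of 15 other desmosomal genes 6 passed the filter, since the desmogleins, desmocollins and plakophilins of stratified epithelia were filtered out. Tmem43, a membrane protein gene in which mutations cause arrhythmogenic cardiomyopathy, had 35.5 ± 2.78 CPM in controls and 42.2 ± 5.25 CPM in HFD+mTAC mice (log2 fold change 0.25, unadjusted p = 0.0297 and adjusted p = 0.525 by edgeR). All 5 HFD+mTAC mice lay above the control mean, and 3 above every control. The TPM means of Tmem43 were 1.06 ± 0.251 and 1.08 ± 0.185, and with transcript lengths as an offset its estimate was 0.16. Des, which encodes the desmin that desmoplakin anchors, had 3017 ± 228 and 3029 ± 221 CPM, a log2 fold change of 0.01. Pkp4 was at 0.12 and Perp at -0.08.

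Of 24 other adherens genes 21 passed the filter, 8 with higher and 13 with lower estimates. Tln1, which encodes talin, a link between integrins and actin, had 224.9 to 260.3 CPM in controls and 267.4 to 292.1 CPM in HFD+mTAC mice, with no overlap (log2 fold change 0.18, SE 0.07, unadjusted p = 0.0272 and adjusted p = 0.514 by edgeR). The difference was present in counts, whereas in TPM the means were 4.44 ± 1.01 and 4.32 ± 1.02. Ctnnb1, the beta-catenin gene, had 235 ± 46.7 and 268 ± 47.2 CPM, a log2 fold change of 0.19 in counts. With transcript lengths taken into account its estimate was larger, 0.65 with the offset, 0.78 in log2(TPM + 1) and 0.86 relative to cardiomyocyte markers, none of them called. The disc-associated Popdc2 had -0.03, and Cdh5, the cadherin of endothelium and also one of the endothelial markers, had 0.18. Ctnnd2 had under 1 CPM in every mouse and a log2 fold change of 1.25 (95% interval -0.05 to 2.55).

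The lowest p of the 71 came from the 17 tight junction and scaffold genes tested. Cldn15, a claudin, had 4.61, 5.88, 3.62, 3.24 and 6.21 CPM in controls and 6.60, 6.23, 10.2, 13.2 and 8.53 CPM in HFD+mTAC mice. In CPM the groups did not overlap, although TT-589 exceeded the highest control only slightly. In TPM they overlapped, with controls up to 0.487 (TT-584) and HFD+mTAC mice from 0.326 (TT-589). The log2 fold change was 0.92 (SE 0.25, unadjusted p = 0.00278 and adjusted p = 0.277 by edgeR), and it passed the threshold in DESeq2 (adjusted p = 0.03745) and with the first principal component as a covariate (0.0173). Its adjusted p ranged from 0.0173 to 0.754 over all alternatives. Its level was low, 0.347 ± 0.136 TPM in controls and 0.604 ± 0.220 in HFD+mTAC mice.

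Cxadr encodes the coxsackie and adenovirus receptor, a disc protein that binds ZO-1. It had 47.0, 45.4, 52.7, 40.8 and 40.3 CPM in controls and 42.1, 40.9, 29.7, 27.9 and 38.2 CPM in HFD+mTAC mice. All 5 HFD+mTAC mice were below the control mean and 3 below every control, the same count as for Gja1 (log2 fold change -0.34, SE 0.13, unadjusted p = 0.0217 and adjusted p = 0.488 by edgeR). The endothelial claudin gene Cldn5 had a log2 fold change of -0.55 (95% interval -1.10 to 0.00, adjusted p = 0.605 by edgeR), which was -0.25 without TT-584 and -0.12 without TT-583 and TT-584. That of F11r was -0.05.

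Among the 10 ion channel partners of the disc, all tested, Scn4b, a beta subunit of the cardiac sodium channel, had 76.1, 62.7, 67.8, 53.6 and 28.9 CPM in controls and 126.0, 96.6, 76.7, 69.9 and 89.9 CPM in HFD+mTAC mice. In CPM the value exceeded every control in 4 of 5 HFD+mTAC mice, in TT-590 only slightly. The log2 fold change was 0.66 (SE 0.23, unadjusted p = 0.0119 and adjusted p = 0.423 by edgeR), and 0.50 to 0.78 without 1 mouse each. In TPM TT-588 (0.768) and TT-592 (0.684) exceeded the highest control (0.641), whereas the other HFD+mTAC mice did not. The TPM means were 0.406 ± 0.197 and 0.531 ± 0.183. Scn2b, the other subunit gene named, was near 1 CPM (0.57, adjusted p = 0.670). Cav3 was at -0.17, Ank2 at 0.03 and Fgf13 at 0.02. Of the 10 genes listed under delivery and turnover of connexin 43, a place given by the list and not tested here, none had an unadjusted p under 0.05. Nedd4, a ubiquitin ligase of connexin 43, was at 0.15 in counts, but at 0.69 with the length offset, 0.72 in log2(TPM + 1) and 0.80 relative to cardiomyocyte markers, none of them called. Csnk1d was at 0.07, Rab11a at -0.04 and Bin1 at -0.32 (95% interval -1.25 to 0.62), and Bin1 at 0.24 without TT-583 and TT-584.

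**Figure D5:**
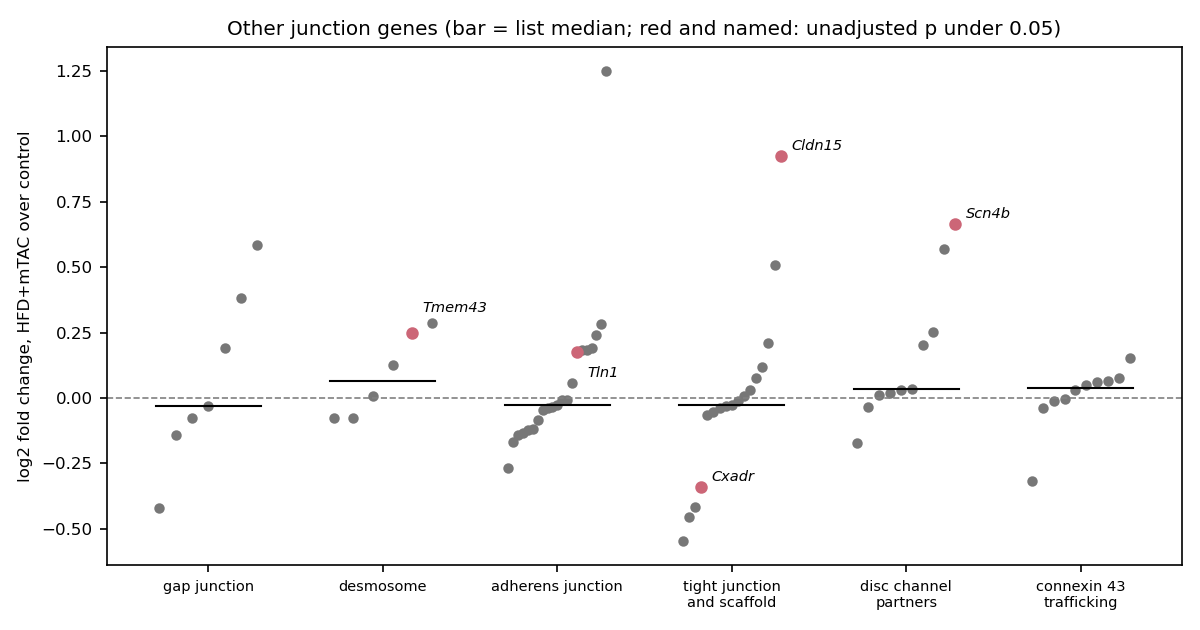
Log2 fold change, HFD+mTAC over control, of the 71 other junction genes tested, in 6 lists, with a bar at the median of each list. The medians lie between -0.03 and 0.07, and the 5 red and named genes are those with an unadjusted p under 0.05, none of which passed the adjusted threshold in edgeR.

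Markers of the other cell types in ventricular tissue were read in the same mice. Exact permutation tests of summed TPM gave p = 0.0159 for the Schwann cell markers (0.451 to 0.858 TPM in controls and 0.281 to 0.483 in HFD+mTAC mice, adjusted p = 0.103 over 13 lists) and p = 0.0794 for the atrial markers (82.3 to 142.7 and 47.4 to 129.5 TPM, adjusted p = 0.344). As means of log2(TPM + 1) the atrial markers had p = 0.0238 and the Schwann cell markers p = 0.0159 in the exact permutation test, before adjustment. Endothelial markers summed to 217.6 to 434.1 TPM in controls and 221.7 to 422.7 TPM in HFD+mTAC mice. The fibroblast markers were at 89.7 to 162.4 and 75.3 to 123.0 TPM, and the mural cell markers at 64.3 to 112.4 and 52.3 to 92.0 TPM. Macrophage (14.3 to 28.2 and 16.7 to 21.2 TPM), lymphocyte (0.154 to 0.351 and 0.119 to 0.452 TPM), conduction (2.07 to 2.74 and 1.87 to 3.47 TPM), epicardial (0.936 to 6.04 and 2.14 to 4.71 TPM), adipocyte (0.0318 to 0.511 and 0.00405 to 0.317 TPM) and blood (90.2 to 876.6 and 95.4 to 860.9 TPM) markers overlapped, with p of 0.238 or more in the exact permutation tests of these lists. Within each list no marker was called by edgeR.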

How the data were processed

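Polyadenylated RNA of left ventricles was sequenced from 5 control and 5 HFD+mTAC mice, 1 library per mouse, and groups were taken from the sample titles. The authors quantified reads with salmon (1.6.0 per the labels) and summed them to genes with tximport. The deposited tables hold estimated counts without normalization (20.07% of values not whole), TPM scaled within each mouse, and other values, the average effective transcript lengths in bases. The methods name GRCm38 and a stranded kit, whereas the processing notes name hg38, a human build; all genes here carry mouse symbols. Read type also differs between the sources, paired-end in the methods and single-end in the labels.

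Symbols were matched to GENCODE M21 of GRCm38 (27812 directly, 879 through another symbol, 873 not matched, holding 0.1% of counts). As in the methods, protein-coding genes outside the mitochondrial genome with at least 1 count in 90% of mice were kept (13299). Counts were rounded and tested with edgeR 4.0.16 in R 4.3.3 (TMM, quasi-likelihood, no covariate, Benjamini-Hochberg adjustment, threshold 0.05). The study's own analysis used log2(TPM + 1), which was run with limma 3.58.1 as an alternative beside DESeq2 1.42.0. Alternatives were other normalizations and filters, transcript lengths as an offset, the first principal component as a covariate, scaling to cardiomyocyte markers and the omission of each mouse; the fit without TT-583 and TT-584 and the ratios in CPM were added after the data were seen. Marker sums were compared with exact permutation tests (scipy 1.17.1), and correlations with 100000 permutations. The scripts were tested on simulated counts of 5 mice against 5. There edgeR called 82 of 100 genes changed by a log2 fold change of 1. Of 100 genes changed by 0.5, edgeR called 21, DESeq2 44 and limma 19, so that changes of this size were mostly missed. Among unchanged genes edgeR called 3, DESeq2 23 and limma 3, so that the further calls of DESeq2 came with more false ones. Within a group, libraries differed by a chi-square per degree of freedom of at least 13.3, so none was a repeat. Neither batches nor pairs are given in the labels.

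The 10 genes and all lists were chosen with earlier results of these data known. Named are all 10 genes, from each wider list the genes with an adjusted p under 0.05, the 3 with the smallest p and the 2 with the highest mean TPM, and the 5 genes most alike in pattern. Some genes that this rule selects are not reported here. Intervals cover the spread between mice.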

Additional observations from a re-analysis of the deposited data

Results flagged for a closer look

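In 132 combinations of group and quantity, 7 values, from 5 mice, stood apart from those of the other 4 mice of the group by Dixon's test (critical value 0.71), and chance flags about 1 in 20. Gja1 in control TT-584 was at 602.5 CPM, below the 752.5 to 806.1 CPM of the other controls. The Tjp1/Gja1 ratio of control TT-583 was 0.288, below 0.387 to 0.395 in the other controls. In HFD+mTAC mouse TT-588 the Dsc2/Dsg2 ratio was 0.362 (others 0.419 to 0.442) and the Ctnna3/Cdh2 ratio 0.103 (others 0.0653 to 0.0746). The same mouse had the highest adipocyte marker sum of its group, 0.317 TPM (others 0.00405 to 0.0894). The Schwann cell marker sum of control TT-585 was 0.451 TPM (others 0.752 to 0.858), and the blood marker sum of HFD+mTAC mouse TT-591, the mouse with the lowest Gja1, was 860.9 TPM (others 95.4 to 284.8). Whether these values bear on the junction genes was not tested.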

How the results depend on the processing

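None of the 10 genes was called under any alternative or without any mouse, and 22 of 230 alternative values of the 10 genes took the other sign, all for genes whose interval holds 0. No paired analysis was possible because the labels give no shared replicate numbers. Of all genes, 8 were called, and 118 by DESeq2, 54 with the first principal component, 1 by limma with either pseudocount (1 or 0.1), 1 with transcript lengths as an offset, 4 relative to cardiomyocyte markers (which moved the median of all genes to 0.108), 4 without TT-583 and TT-584, and 1 to 9 without 1 mouse each. Of the wider lists DESeq2 called 1 and the component fit 1, Cldn15 each time. Without 1 mouse, 0 to 1 of the 10 genes had groups that did not overlap (2.55 to 3.75% of all genes). The causes were not tested.

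Log2 fold changes that took the other sign were, with transcript lengths, Gjc1 -0.01, Dsg2 -0.03, Popdc2 0.07, F11r 0.16 and Rab11a 0.10. With limma at pseudocounts 1 and 0.1 they were Pkp2 0.04 and 0.04, Dsg2 -0.01 and -0.02, Popdc2 0.11 and 0.11, F11r 0.30 and 0.31, and Rab11a 0.14 and 0.14. With the component they were Dsp -0.13, Dsg2 -0.16, Cdh2 -0.10, Gja4 0.09, Ank2 -0.13, Fgf13 -0.15 and Rab11a 0.02. Relative to cardiomyocyte markers they were Pkp2 0.12, Gjc3 0.06, Gja4 0.05, Gja3 0.01, Perp 0.01, Popdc2 0.19, F11r 0.39 and Rab11a 0.22. Without TT-583 and TT-584 they were Dsp -0.02, Dsg2 -0.19, Cdh2 -0.10, Gja4 0.11, Ank2 -0.08, Fgf13 -0.13 and Bin1 0.24. Without 1 mouse each, Dsp ranged from -0.04 to 0.21, Pkp2 from -0.04 to 0.03, Dsg2 from -0.09 to 0.13, Cdh2 from -0.02 to 0.18, Gja4 from -0.19 to 0.10, Des from -0.04 to 0.05, Popdc2 from -0.05 to 0.03, Ank2 from -0.06 to 0.12, Fgf13 from -0.07 to 0.13, Bin1 from -0.62 to 0.17 and Rab11a from -0.08 to 0.03.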
